A study of Mus musculus with 6 samples.

Results

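Matriptase (St14), prostasin (Prss8), the kallikrein Klk7, their inhibitors HAI-1 (Spint1) and HAI-2 (Spint2), the matriptase substrate Cdcp1 and the transglutaminase Tgm1 form the group of 7 mouse genes described here, out of 24454 genes in the table. They were picked by name, with their values in these libraries already known, so their levels and fold changes are a description and carry no test. All 7 had a row, and all 7 passed the filter of at least 1 CPM (the reads of a gene scaled to library size) in at least 2 libraries, as did 11524 genes in all. Because each was well above the filter in the PBS cells, passing it says nothing about the treated lines.

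RNA came from Py2T, an epithelial line from a mouse mammary tumour, in 3 groups of 2 libraries. C40 cells had been given 40 µM H2O2 each day for 4 months and I60 cells 60 µM, while controls carry the label PBS and a dose of 0 µM, though the treatment protocol describes them as untreated. The 2 libraries of each group are described as biological duplicates, and whether their cultures were treated apart is not known. Each treated line is 1 line, so an effect of H2O2 and a difference that arose in the line by itself cannot be told apart. The libraries held 48113692 to 60260520 reads. The PBS cells carried the epithelial markers Cdh1, Epcam, Cldn7, Krt8 and Krt18, whose sum ran from 2598 to 3982 CPM over the 6 libraries and was carried by Krt8 and Krt18, neither of which passed the test in either line. The other epithelial markers were far lower in the treated lines: Cdh1 (E-cadherin) had means of 533, 73.7 and 0.158 CPM in PBS, C40 and I60, and Cldn7 135, 5.41 and 0 CPM. Of the mesenchymal markers, Lum, Fap and Thy1 had no read (0) in any library. The sum of all 6 was 20.8 and 46.5 CPM in PBS, 2344 to 3176 CPM in C40 and 3838 to 4376 CPM in I60. The highest sum was carried by 1 marker, at 4286 of the 4376 CPM. Krt14, a basal keratinocyte marker, made up most of a keratinocyte sum that ran from 14.1 to 1428 CPM and was highest in PBS. The mesenchymal and keratinocyte sums and these epithelial markers all move with the groups, and their part in the results below was not tested. All 8 immune and mast cell markers, sources of other serine proteases, were under 1 CPM in every library (summed level 0.0416 to 0.368 CPM). In bulk RNA, fewer cells that carry a transcript and less of it per cell cannot be told apart.

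Matriptase is a serine protease anchored in the epithelial cell membrane. It and the lipid-anchored prostasin activate one another and cut surface proteins, while HAI-1 and HAI-2, which carry Kunitz-type inhibitor domains, bind them, hold them in check and help them reach the surface. In skin the same system supports barrier formation: Klk7 cuts the adhesion proteins between cornified cells, and Tgm1 cross-links the proteins of the cornified envelope.

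The 7 genes separated by how far I60 was below C40, and not by their level in I60 alone. St14, Prss8, Klk7 and Cdcp1 were lower in C40 than in PBS and lower again in I60, where almost nothing was left. Spint1, Spint2 and Tgm1 were also lower in C40, and their mean CPM in C40 was 1.87, 1.35 and 1.02 times that in I60. In I60 the level of Tgm1 was near that of St14, with means of 0.696 and 0.483 CPM. In each of the 7, both C40 libraries and both I60 libraries were below both PBS libraries. The count called lower was 7 of 7 in C40 and 7 of 7 in I60, where 9.02% and 13.1% of all genes tested were called lower, and from this nothing is read, as the genes were chosen with these values known. I60 was below C40 without overlap in all but Tgm1, and 4 of 7 were called lower there, against 5.73% of all genes tested lower and 3.51% higher.

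**Figure D1:**
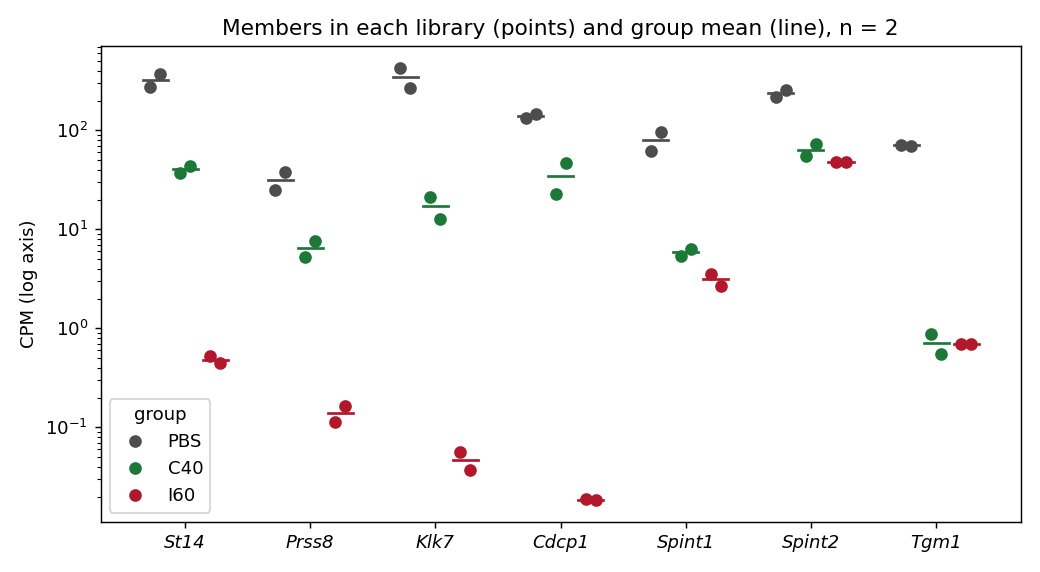
CPM of the 7 genes on a log axis in each library (points) with the group mean (line), for PBS, C40 and I60. St14, Prss8, Klk7 and Cdcp1 step down from PBS to C40 and from C40 to I60. The step from C40 to I60 is smaller in Spint1 and Spint2, and the libraries of C40 and I60 overlap in Tgm1.

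Among the proteases, St14 (mm10 chromosome 9, 31088590 to 31131811) was measured at 278 and 375 CPM in PBS. C40 had 37.5 and 43.4 CPM and I60 had 0.524 and 0.442 CPM. The 3 groups do not overlap. The last values rest on 28 and 24 reads. The mean was 326 ± 69.0 CPM in PBS and 40.4 ± 4.18 CPM in C40 (SD, n = 2), a log2 fold change of -2.98 (SE 0.23) on the log2(CPM + 0.5) scale. In I60 it was 0.483 ± 0.0582 CPM, a log2 fold change of -8.36 (SE 0.23) against PBS.

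Prss8 (chromosome 7, 127925717 to 127930149) was measured in PBS at 25.0 and 38.2 CPM. It stood at 5.28 and 7.71 CPM in C40 and at 0.112 and 0.166 CPM in I60, that is 6 and 9 reads. Its log2 fold changes were -2.19 in C40 and -5.62 in I60 (SE 0.31). The groups again form 3 separate steps. The 3' end of Prss8 overlaps the end of Kat8, an acetyltransferase gene on the opposite strand. Kat8 had means of 17.1 CPM in PBS, 20.5 in the C40 line and 18.0 in the I60 line and did not follow the steps of Prss8. The strand setting of the counts is not given.

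Klk7 (chromosome 7, 43811294 to 43816387), a secreted chymotrypsin-like protease, had the widest range of the 7. It was measured at 431 and 266 CPM in PBS, 21.5 and 12.7 CPM in C40, and 0.0562 and 0.0368 CPM in I60 (3 and 2 reads). Its log2 fold change was -4.32 in C40 and -9.28 in I60 (SE 0.34). Replicate 1 was the higher library in each group.

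Cdcp1 (chromosome 9, 123170805 to 123216110) encodes a transmembrane protein that serine proteases cut near the membrane. It kept the largest share of its PBS level in C40 among St14, Prss8, Klk7 and itself, and the smallest number of reads in I60: 135 and 145 CPM in PBS, 22.8 and 46.9 CPM in C40, and 1 read in each I60 library. The C40 replicates were further apart than those of the other groups. The log2 fold change in C40 was -2.08 (SE 0.35). The pooled reads of Cdcp1 in PBS and I60 gave a ratio of 7547 (95% interval 2089 to 62326, counting error only). Across the alternative settings tried, the log2 fold change of I60 against PBS ran from -9.41 to -7.03 for St14, from -7.84 to -3.94 for Prss8, from -12.87 to -7.38 for Klk7 and from -12.88 to -6.14 for Cdcp1. The ends nearest 0 came with a pseudocount (the constant added before taking logs) of 2, and the far ends with DESeq2 on recovered reads.

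The Cdcp1 promoter is shown because the gene followed St14 most closely of the 7. It is the stretch of 250 bases before the start site (chr9:123216039-123216288, minus strand, RefSeq, GRCm38.p6), with the letters of an E-box in capitals. The motif searched was CACCTG or its reverse complement CAGGTG, the E-box that Zeb and Snail repressors can bind, and it begins 205 bases before the start.

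Cdcp1: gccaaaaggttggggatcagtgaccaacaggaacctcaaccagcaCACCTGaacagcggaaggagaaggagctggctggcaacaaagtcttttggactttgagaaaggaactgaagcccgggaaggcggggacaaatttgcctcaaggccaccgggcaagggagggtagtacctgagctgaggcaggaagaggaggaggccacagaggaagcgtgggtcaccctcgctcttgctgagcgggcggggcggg

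Of the 32851 promoter windows of this length in the table, 17.2% hold that motif. Windows were listed for 5 of the 7 genes (St14 and Prss8 have none there). The windows of Klk7 and Tgm1 do not hold it, which says only that these letters are not in the stretch searched.

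The inhibitors kept more of their RNA in I60 than the proteases did. Spint1 (chromosome 2, 119237360 to 119249535) was at 62.1 and 96.9 CPM in PBS, 5.40 and 6.29 CPM in C40, and 3.58 and 2.69 CPM in I60. Both I60 libraries lie below both C40 libraries, and the C40 mean was 1.87 times that of I60. Its log2 fold changes were -3.62 in C40 and -4.44 in I60 (SE 0.29), and the difference between the lines was -0.81.

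Spint2 (chromosome 7, 29256330 to 29282059) differed least from PBS of the 7. It was at 217 and 256 CPM in PBS, 55.7 and 72.4 CPM in C40, and 47.4 and 47.7 CPM in I60. The I60 values rest on 2532 and 2588 reads. Its log2 fold changes were -1.88 in C40 and -2.30 in I60 (SE 0.19), and the difference between the lines was -0.41.

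The promoters of both inhibitors are shown because the genes were lower together in both lines yet hold different motifs. In Spint1 (chr2:119237110-119237359, plus strand) the capitals mark AACCGG, the core of the site that Grainyhead factors such as Grhl2 bind, searched with its reverse complement CCGGTT. In Spint2 (chr7:29281978-29282227, minus strand) they mark the E-box CAGGTG.

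Spint1: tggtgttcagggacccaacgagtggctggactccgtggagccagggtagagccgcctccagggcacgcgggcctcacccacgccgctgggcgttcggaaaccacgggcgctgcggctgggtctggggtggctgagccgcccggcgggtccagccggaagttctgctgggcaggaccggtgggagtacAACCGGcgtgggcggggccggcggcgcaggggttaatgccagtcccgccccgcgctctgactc
Spint2: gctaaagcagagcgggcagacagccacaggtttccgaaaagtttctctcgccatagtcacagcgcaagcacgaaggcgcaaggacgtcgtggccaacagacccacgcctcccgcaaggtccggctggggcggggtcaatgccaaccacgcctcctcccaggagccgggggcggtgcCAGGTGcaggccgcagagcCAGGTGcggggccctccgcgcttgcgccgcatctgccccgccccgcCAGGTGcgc

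Spint1 holds 1 Grainyhead core, 63 bases before the start, and no E-box. Such a core is in 5.62% of all windows. Spint2 holds 3 E-boxes, 74, 55 and 9 bases before the start, and no Grainyhead core. At least 3 E-boxes are in 0.247% of windows. The windows of Klk7, Cdcp1 and Tgm1 hold no Grainyhead core either. The motifs were chosen after the sequences had been seen, so these shares are a description and no test. A match is a run of letters and not a measured binding site.

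Tgm1 (chromosome 14, 55700009 to 55713921) showed the steepest step between PBS and C40 and none after it. It was at 71.8 and 69.1 CPM in PBS, 0.873 and 0.552 CPM in C40 (42 and 30 reads), and 0.693 and 0.700 CPM in I60 (37 and 38 reads). C40 and I60 overlap. The log2 fold changes were -5.88 and -5.89 (SE 0.25), and the difference between the lines was -0.01. Its sign changed under other settings.

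**Figure D2:**
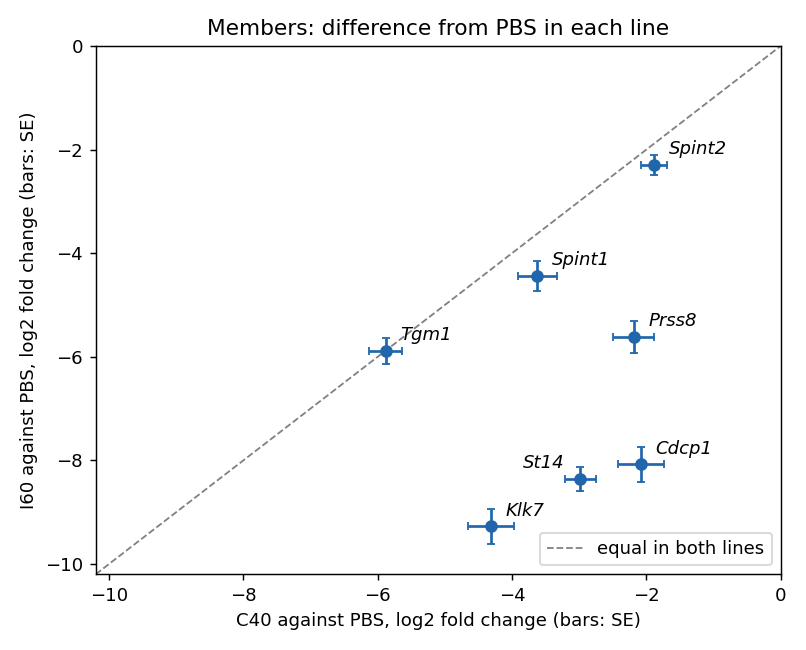
Log2 fold change of the 7 genes in C40 (horizontal) and I60 (vertical) against PBS, with standard errors; the dashed line marks equal values. Tgm1 lies on the line, Spint1 and Spint2 near it, and St14, Prss8, Klk7 and Cdcp1 far under it. Both axes use the same PBS libraries.

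Per kilobase of annotated exon, Klk7 was the highest of the 7 in PBS (184 CPM per kb), followed by Spint2 (51.9), St14 (42.7), Spint1 (28.7), Tgm1 (22.3), Cdcp1 (20.7) and Prss8 (17.1). In this order the PBS libraries of Spint2 and St14 overlap, as do those of Spint1 and Tgm1 and those of Cdcp1 and Prss8. In I60 the order was Spint2 (10.4 CPM per kb), Spint1 (1.13), Tgm1 (0.220), Prss8 (0.0751), St14 (0.0633), Klk7 (0.0245) and Cdcp1 (0.00275). There the libraries of Prss8 and St14 overlap.

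Set against each other, Spint2 per kb was 1.31 and 1.14 times St14 in the PBS libraries, 2.49 and 2.80 times in C40, and 152 and 181 times in I60. The ratio of Spint1 to St14 moved the other way first: it was 0.618 and 0.713 in PBS, 0.398 and 0.400 in C40, and 18.8 and 16.8 in I60. The ratios to Prss8 had the same shape in I60, with Spint2 at 172 and 117 times Prss8, against 3.52 and 2.73 times in PBS. In C40, Spint1 was 0.685 and 0.546 times Prss8, under both PBS values of 1.66 and 1.70. Exon length sets the height of these ratios but not how they differ between libraries.

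**Figure D3:**
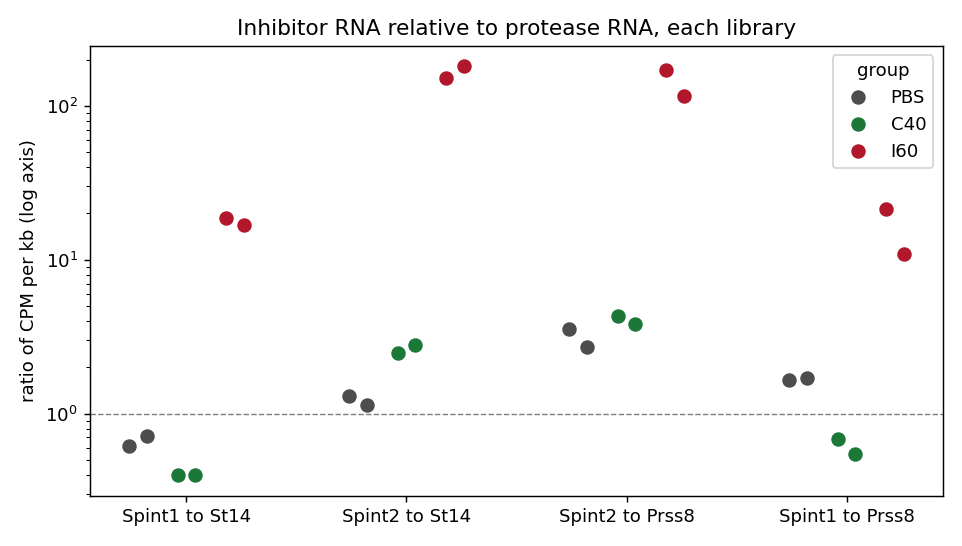
Ratio of inhibitor to protease level (CPM per kb of exon, log axis) in each library; the dashed line marks equal levels. In I60 all 4 ratios are above 10, with Spint2 to St14 at 152 and 181.

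The genes with the most similar patterns over the 6 libraries were found as the smallest root mean square difference of centred log2 values. For St14 they were Rab25, a small GTPase of epithelial membrane traffic (0.144), Lsr, a protein of tricellular junctions (0.199), and Epcam (0.210). For Cdcp1 they were Lsr (0.286), the laminin chain Lama3 (0.318) and S100a14 (0.335). Among the genes close to Klk7 were Nes (0.298) and its own neighbour Klk6 (0.414). Prss8 was closest to Cblc (0.179), Kdf1 (0.234) and Ovol1 (0.271). Tgm1 was closest to Sfrp1 (0.153), Ripk3 (0.225) and the desmosomal cadherin Dsg2 (0.361), and Spint1 to the actin nucleator Cobl (0.188), Slc4a4 (0.235) and Pnpla3 (0.236). Below the constant of 0.5 CPM this measure hardly separates levels: Slc4a4 had means of 7.62, 0.240 and 0.0279 CPM, and Pnpla3 of 8.51, 0.379 and 0 CPM, while Spint1 kept 3.13 CPM in I60. Spint2 was closest to Cracr2b (0.135), Rasip1 (0.146) and Sdr42e1 (0.154), which are at 1.99 to 3.48 CPM in PBS, where 236 ± 27.6 CPM was measured for Spint2. Within the 7, the closest pair was St14 with Cdcp1 (0.457) and the furthest Klk7 with Spint2 (2.92).

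The wider system was described with 7 lists of 140 other genes, of which 138 had a row and 74 passed the filter on low values. For these, a call is an adjusted p below 0.05 by limma with Benjamini-Hochberg adjustment over all 11524 genes. In C40, 26 of the 74 were called lower and 12 higher, where 9.02% of all genes tested were lower and 11.2% higher. In I60, 28 were lower and 15 higher, where 13.1% and 13.9% of all genes were. The same shares of all genes are the background for the counts of each list below. In 6 of the 74, only 1 group had a library at 1 CPM or more (Tmprss2, Klk9, Asprv1 and Ovol2 in PBS, Igfbp7 and Snai2 in C40), and these had to differ to be counted, so the counts are descriptions. Without PBS replicate 1, 17 were called lower in C40. The number higher in I60 was 7 without PBS replicate 2 or I60 replicate 2.

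Of 21 other membrane-anchored serine proteases, 5 passed the filter and 16 had no test. Tmprss2, Tmprss4, Tmprss11e and Prss22 fell in both lines, and Tmprss11f, at 0.818 ± 0.898, 0.619 ± 0.347 and 1.82 ± 0.557 CPM, did not pass (limma adjusted p = 0.927 and 0.200). The 5 had medians of -2.32 in C40 and -3.09 in I60 (-6.95 with genes at 0 reads set to their bound), beside -0.02 and -0.002 over all genes tested. Tmprss11e (DESC1), a matriptase relative, fell from 113 ± 35.8 CPM in PBS to 22.2 ± 7.34 in C40 and 0.399 ± 0.140 in I60 (adjusted p by limma: 0.00372 for C40, 1.9e-05 for I60). Tmprss4 went from 26.0 ± 1.77 CPM to 9.32 ± 4.25 in C40 (limma adjusted p = 0.0206) and 0 reads in I60, at least 931-fold lower. Its C40 call did not hold when any PBS or I60 library was left out (limma adjusted p = 0.0543 to 0.140). Tmprss2 had 3.77 ± 0.467 CPM in PBS and 0 reads in both lines, at least 128-fold and 135-fold lower, and entered the test through PBS alone. Prss22 (tryptase epsilon) fell to 6.88 ± 2.37 CPM in C40 and stayed at 5.00 ± 1.45 in I60, from 44.7 ± 22.7 in PBS (adjusted p by limma: 0.00658 and 0.00249). The lines did not differ in Prss22 by the test (0.645), with a log2 difference of -0.41 (SE 0.42).

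The kallikreins lie side by side on chromosome 7, and the expressed ones beside Klk7 were lower too. Of 12 listed besides Klk7, 4 passed the filter and all 4 fell in both lines, with medians of -2.94 and -5.06. Klk9 was among the 4 through PBS alone, so it had to differ to be counted. Klk6, which starts 13.1 kb after Klk7, fell from 653 ± 184 CPM to 22.4 ± 1.83 in C40 and 0.892 ± 0.0104 in I60 (adjusted p by limma: 7.12e-05 and 5.64e-06). Klk8, which starts 13.8 kb before it, fell from 372 ± 76.2 to 40.1 ± 3.39 and 1.59 ± 0.0998 CPM (limma adjusted p = 0.000197 and 5.64e-06). Further along, Klk10 levelled off: it stood at 639 and 469 CPM in the controls, 157 and 44.9 CPM in C40, and 113 and 65.5 CPM in I60. C40 and I60 overlap in it. Its calls were lost without PBS replicate 1 or 2 in C40 (adjusted p = 0.0716 to 0.131) and without those or I60 replicate 2 in I60 (0.0601 to 0.106). Klk9, between Klk10 and Klk8, had a mean of 2.81 ± 1.97 CPM in PBS cells, 0.387 ± 0.158 in C40 and 0.429 ± 0.268 in I60, and its calls were lost without PBS replicate 1 or either I60 replicate, and in C40 also without C40 replicate 2. Without PBS replicate 1, 2 of the 4 kallikrein calls held in each line, and so they did in I60 without I60 replicate 2. Klk5, an activator of Klk7 in skin, stood at 0.317 CPM in PBS and 0 reads in both lines.

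**Figure D4:**
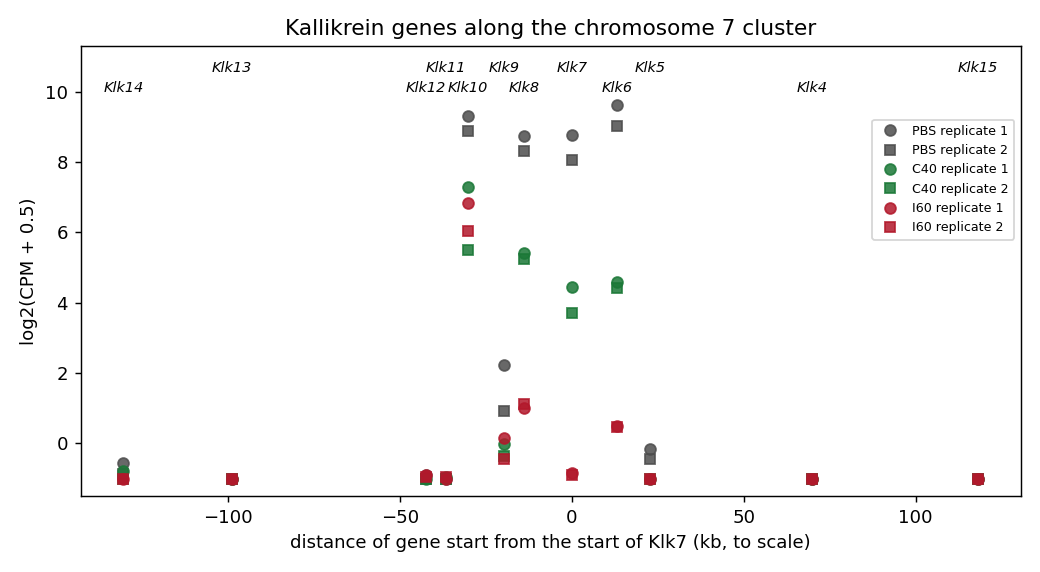
log2(CPM + 0.5) of kallikrein genes in each library by the distance of their start from that of Klk7, in kb. Klk8, Klk7 and Klk6 step down from PBS to C40 to I60, while C40 and I60 overlap in Klk10.

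Of the 28 protein-coding genes that are the nearest pair on each side of one, 22 passed the filter. In C40, 5 were lower (22.7%, beside 9.02% of all genes tested) and 2 higher (9.09%, beside 11.2%). In I60, 3 were lower (13.6%, beside 13.1%) and 2 higher (9.09%, beside 13.9%). Klk6, Klk8 and Klk9 were the 3 lower in both lines. Yif1b, a trafficking gene beside Spint2, was higher in both, with means of 20.1 CPM in PBS, 75.4 in the C40 line and 42.6 in the I60 line (limma adjusted p = 0.00247 and 0.0191). Rhov, beside Spint1, was lower in C40 and higher in I60, with means of 0.476, 0.0588 and 2.44 CPM. Rhov reached 1 CPM in I60 alone and Klk9 in PBS alone, so both had to differ to be counted. Dhrs1, beside Tgm1, was lower in C40 (97.4 to 57.9 CPM) and Tmem158, beside Cdcp1, higher there (3.83 to 7.97 CPM), and neither passed in I60. Next to St14, Zbtb44 had means of 47.5 CPM in PBS, 46.1 in the C40 line and 39.5 in the I60 line, and Aplp2 at 297, 287 and 248 CPM. Rabggta, 1.94 kb from Tgm1, stood at 54.2, 47.2 and 75.9 CPM. None of these 3 passed the test in either line.

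Other inhibitors of serine proteases went both ways. Of 24 listed, 9 passed the filter: 2 fell and 2 rose in C40, and 2 fell and 4 rose in I60, with medians of -0.53 and 0.08. Of the 4 that rose in I60, Serpinb9 and Tfpi did not hold without PBS replicate 2 or I60 replicate 2, which leaves 2, and Tfpi did not hold in C40 without PBS replicate 2, which leaves 1. Serpinb5 (maspin), an epithelial serpin, fell from 132 ± 48.1 CPM to 18.7 ± 2.24 in C40 and 0.261 ± 0.187 in I60 (adjusted p by limma: 0.00167 and 1.48e-05). Wfdc2, a small secreted protein with inhibitor-like domains, fell from 706 ± 168 to 148 ± 10.7 and 120 ± 7.59 CPM (limma adjusted p = 0.000498 and 0.000153). Slpi, a secreted leukocyte protease inhibitor, rose in I60 to 248 ± 21.5 CPM from 47.8 ± 16.8 (0.00333), and was at 99.4 ± 47.8 CPM in C40 (0.100). Serpinb6a, at 659 ± 162 CPM in PBS, did not pass in either line (0.406 and 0.822).

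Substrates and partners were mixed as well. Of 20 listed, 14 passed the filter: 4 fell and 2 rose in each line, with medians of -0.75 in C40 and -0.06 in I60. In each line that is 28.6% lower and 14.3% higher. Of all genes tested, 9.02% were lower and 11.2% higher in C40, and 13.1% and 13.9% in I60, so the share that rose was near the background. Of the 2 that rose, Pdgfc did not hold in C40 without PBS replicate 1 or 2, and F2r did not hold in I60 without those or I60 replicate 2, which leaves 1 in each line. Among the 4 that fell, too, a call in each line was lost without PBS replicate 1 or 2. The adhesion protein Epcam, which matriptase cuts, fell in both lines. It went from 358 ± 72.6 CPM to 47.2 ± 7.46 and 0.899 ± 0.239 CPM (limma adjusted p = 0.000418 and 5.69e-06 against PBS). Scnn1a is the alpha subunit of the sodium channel that prostasin activates. It fell from 4.73 ± 0.159 to 0.640 ± 0.124 CPM in C40 and 0.684 ± 0.544 in I60 (adjusted p by limma: 0.00513 and 0.00353). The other listed subunits of that channel, Scnn1b and Scnn1g, had only 2 and 6 pooled reads in PBS and were not tested.

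F2rl1 and Met, receptors downstream of these proteases, stayed measurable. The listed gene Mst1r had only 4, 2 and 2 pooled reads in PBS, C40 and I60 and was not tested. F2rl1 (PAR2), a receptor switched on by cleavage, was at 68.7 and 67.1 CPM in PBS, 31.3 and 15.4 CPM in C40, and 83.5 and 75.1 CPM in I60. It fell in C40 (limma adjusted p = 0.0134) and did not pass in I60 (0.645). Leaving out PBS replicate 1 or 2 ended the C40 call (0.0821 to 0.105). Met, the receptor of the growth factor HGF, was at 322 ± 78.9, 201 ± 41.7 and 245 ± 25.6 CPM and did not pass (0.0875 and 0.278). Mst1, a pro-growth factor that HGF activator and matriptase can process, rose in I60 from 0.908 ± 0.275 to 8.29 ± 4.28 CPM (limma adjusted p = 0.00388). Igfbp7, a matrix protein that matriptase cuts, had 0.146 ± 0.0657 CPM in PBS cells, 16.4 ± 0.0800 in C40 and 0.140 ± 0.120 in I60. It entered the test through C40 alone.

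Of 31 genes of the cornified envelope and cornification, 29 had a row and 14 passed the filter. In C40, 7 fell and none (0) rose, with a median of -1.71. Of these 7, 3 held without PBS replicate 1 (Ppl, Cst6, S100a11 and Sbsn did not) and 4 without PBS replicate 2. In I60, 4 fell and 1 rose, with a median of -0.72. Evpl (envoplakin), an envelope precursor that Tgm1 cross-links, fell from 120 ± 25.6 CPM to 10.3 ± 8.17 in C40 and 1.10 ± 0.119 in I60 (adjusted p by limma: 0.00325 and 0.000204). Its partner Ppl (periplakin) was at 406 and 363 CPM in PBS, 137 and 43.8 CPM in C40, and 188 and 179 CPM in I60. The C40 call of Ppl (limma adjusted p = 0.0143) was lost without PBS replicate 1 or 2 (0.0795 to 0.115), and I60 did not pass (0.137).

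Among other transglutaminases, Tgm5 was at 15.3 and 8.65 CPM in PBS, 0.333 and 0.147 CPM in C40, and 6.14 and 7.59 CPM in I60. It fell in C40 (limma adjusted p = 0.00036), did not pass in I60 (0.158), and was higher in I60 than in C40 by 3.32 on the log2 scale (0.00128). Tgm2, the widely expressed member, had 120 ± 12.5 CPM in the controls, 132 ± 24.7 in C40 (0.763) and 248 ± 85.2 in I60 (0.0304), a call lost without either PBS replicate or I60 replicate 2 (0.102 to 0.189). The protease Asprv1, which trims filaggrin in skin, had 5.96 ± 0.525 CPM in PBS cells, 0.676 ± 0.279 in C40 and 0.120 ± 0.0643 in I60, and entered the test through PBS alone.

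Factors of the epithelial surface program and its repressors went opposite ways. Of 15 listed, 12 passed the filter: 5 fell and 5 rose in C40, and 6 fell and 4 rose in I60. Those that fell in C40 were Grhl1, Grhl2, Ovol1, Ovol2 and Elf3, with Klf4 added in I60. Those that rose in C40 were Zeb1, Zeb2, Snai1, Snai2 and Twist1, of which Snai2 did not pass in I60. Ovol2 entered the test through PBS alone and Snai2 through C40 alone. Without PBS replicate 1, 2 of the 5 that rose in C40 held, and 3 without PBS replicate 2. Leaving out 1 library ended the calls of Grhl1, Snai1, Snai2 and Twist1 in C40 and of Klf4 and Snai1 in I60. Grhl2, a Grainyhead factor of epithelial cells, fell from 110 ± 13.8 CPM to 14.9 ± 0.927 in C40 and 0.603 ± 0.0587 in I60 (adjusted p by limma: 0.00031 and 6.21e-06). Ovol1 fell from 24.6 ± 3.35 to 5.85 ± 1.80 CPM in C40 (limma adjusted p = 0.0032) and had 0 reads in I60, at least 881-fold lower. Elf3 levelled off, at 28.7 ± 1.86, 7.30 ± 2.23 and 5.07 ± 0.808 CPM (limma adjusted p = 0.00361 and 0.000932 against PBS). Zeb1 rose from 4.01 ± 2.86 to 41.9 ± 3.01 and 37.5 ± 8.07 CPM (0.00226 and 0.00203), and Zeb2 from 1.92 ± 0.903 to 36.2 ± 17.5 and 29.0 ± 12.3 CPM (0.00162 and 0.00153). For both Zeb genes, C40 and I60 did not differ by the test (0.871 and 0.776), with log2 differences of -0.17 (SE 0.44) and -0.30 (SE 0.46).

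Surface and secreted metalloproteases are a protease class of other chemistry. Of 17 listed, with their Timp inhibitors, 16 passed the filter: none (0) fell and 3 rose (18.8%) in C40, and 4 fell and 4 rose (25.0% each) in I60, with medians of -0.13 and 0.19. Of the 8 calls in I60, 6 were lost with some library left out, down to 1 that fell (without PBS replicate 1 or I60 replicate 1) and 1 that rose (without PBS replicate 2 or I60 replicate 2). Mmp2, a gelatinase, rose from 0.0857 ± 0.0273 to 3.21 ± 1.01 CPM in C40 and 3.90 ± 1.39 in I60 (adjusted p by limma: 0.00174 and 0.000759). Adam12 was at 35.1 ± 10.1 CPM in PBS and 37.6 ± 29.7 in C40 (0.885), and fell to 0.158 ± 0.0376 in I60 (0.000382). Mmp14, a membrane-anchored protease like matriptase, was at 85.6 ± 18.1, 73.9 ± 0.213 and 67.8 ± 4.39 CPM and did not pass (0.515 and 0.269).

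**Figure D5:**
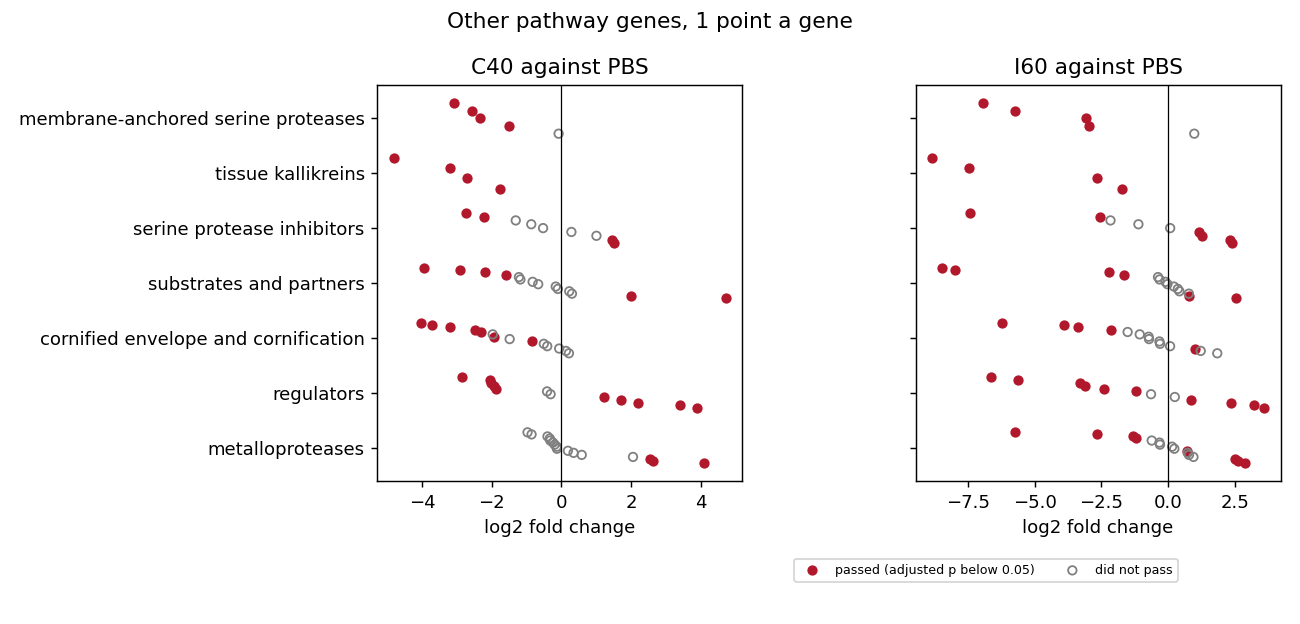
Log2 fold change against PBS of the 74 genes of the 7 lists that passed the filter, 1 point a gene, filled where the adjusted p is below 0.05. Kallikreins lie to the left in both lines, as do membrane-anchored proteases except Tmprss11f (-0.08 in C40, 0.98 in I60). Inhibitors, regulators and metalloproteases spread to both sides. Both panels use the same PBS libraries.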

How the data were processed

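RNA was measured in 6 libraries of 3 groups, taken from the labels, whose protocols describe rRNA depletion with more than one kit, without saying which library had which. Per the submitters' processing notes, STAR and build mm10 were used; no source used here gives the counting program, annotation or strand setting. CPM were computed and deposited by the authors. Each value was a whole multiple (tolerance 0.01) of the smallest of its library for 100% of values, which gave back whole reads for edgeR 4.0.16 and DESeq2 1.42.0, used as alternatives. Symbols and positions came from RefSeq (GRCm38.p6, equivalent to mm10), with symbols for 24374 of 24454 IDs, and exon lengths from GENCODE as the union over transcripts.

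The test was limma 3.58.1 (R 4.3.3, two-sided, intensity trend) on log2(CPM + 0.5) fitted over all 6 libraries together, with 3 residual degrees of freedom, on genes reaching 1 CPM in 2 or more libraries, with p-values adjusted by Benjamini-Hochberg. Fold changes on that scale understate those of low genes. With 2 libraries a group, p-values reflect only the spread between them, which may be technical. The code was tested on simulated reads. Where a group had 0 reads, folds are bounds computed from 3 reads over that group. Intervals and floors cover counting error only. Alternatives were another pseudocount, filter, scaling, tool, sample set and replicate block, and leaving out each library.

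The genes and lists were chosen with earlier results of these data known, and the promoter motifs after the sequences had been seen. Genes named are the 7, list genes, the nearest pair of genes on each side of each of the 7, and the 3 most similar patterns for each. Loricrin and Flg are not analysed here, and some genes that enter the counts or the similar patterns are not reported by name.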

Additional observations from a re-analysis of the deposited data

Results flagged for a closer look

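In 22 of the list genes that can be reported by name, the effects against PBS differed between the lines by limma's test of I60 against C40 (adjusted p below 0.05 over all genes tested), 14 lower and 8 higher in I60. The test covered the 74 list genes that passed the filter. Over all genes tested, 5.73% were lower and 3.51% higher in I60 than in C40. Log2 differences of I60 minus C40 in the 22 follow. The lower ones were the proteases Tmprss4 (-4.22), Tmprss11e (-4.63), Klk6 (-4.04) and Klk8 (-4.28), the serpin Serpinb5 (-4.68), the surface protein Epcam (-5.09), the matrix protein Igfbp7 (-4.73), the cornification genes Evpl (-2.52) and Cst6 (-1.98), the transcription factors Grhl2 (-3.80), Ovol1 (-3.64) and Ovol2 (-1.24), and the metalloproteases Adam12 (-5.59) and Mmp9 (-1.60). The higher ones were Serpinb9 (1.67), F2rl1 (1.83), F2r (0.90), Mst1 (2.34), Atp1b1 (1.55), Tgm5 (3.32), Sprr1b (3.82) and Adam8 (1.04). In 7 of the 22 the estimates against PBS had opposite signs in the lines. In each of these 7 the estimate of C40, of I60 or of both did not pass the test against PBS. Sprr1b and Atp1b1 passed in neither line, and Igfbp7 was at -0.02 in I60. Leaving out 1 library ended 11 of the 22 calls: Adam8, Atp1b1, Cst6, Evpl, F2r, F2rl1, Mmp9, Mst1, Ovol2, Serpinb9 and Sprr1b. Igfbp7 entered the test through C40 alone and Ovol2 through PBS alone. Values of the 7 chosen genes are not listed here, since they were known when the genes were chosen.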

How the results depend on the processing

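The 7 chosen genes were lower than PBS in both lines under every alternative tried. The one sign that turned was that of Tgm1 between the lines, which was 0.00014 (log2 difference of Tgm1, I60 vs C40) with a pseudocount of 0.1 and ranged from -0.20 to 0.19 with a library left out. Calls of the 7 under these alternatives are not counted here, since the genes were chosen with these values known. Among them, Cdcp1 did not pass in C40 without PBS replicate 1 or 2. With a library left out, list genes called lower ran from 17 to 30 in C40, 20 to 33 in I60 and 11 to 19 between the lines, and those higher from 8 to 14, 7 to 19 and 1 to 10. By DESeq2, 32 were lower in C40 and 22 between the lines. List genes higher in I60 than C40 were 5 with no filter on low values and 4 with only the groups compared. Over all genes with a library left out, 549 to 1717 were higher and 425 to 1750 lower in C40, 756 to 2120 and 740 to 2070 in I60, and 140 to 832 and 249 to 937 between the lines, where 1064 were lower by DESeq2 and 418 with only the groups compared. The cause of these shifts was not tested. The numbers of the replicates give 2 pairs a comparison. Deviations of same-numbered libraries correlated across genes at 0.15 (PBS with C40), 0.11 (PBS with I60) and 0.44 (C40 with I60). Whether the numbers mark a shared batch was not tested, and the main fit has no block for them. With the replicate block, list genes lower were 31 in C40, 29 in I60 and 19 between the lines, and higher 15, 17 and 11. In I60, Prss8, Klk7 and Cdcp1 rest on 15, 5 and 2 pooled reads.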
